A study of Mus musculus with 8 samples.

Results

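The genes of the TGF-beta branch were examined in cultured mouse ovarian follicle cells that had received FOXL2 siRNA or control siRNA and then 17beta-estradiol (E2) or vehicle. The 10 genes are 3 ligands (Tgfb1, Tgfb2 and Tgfb3), 2 receptors (Tgfbr1 and Tgfbr2) and 5 SMADs (Smad2, Smad3, Smad4, Smad6 and Smad7), chosen by name and matched through their mouse Entrez IDs, out of 24235 genes with such an ID on the array. All 10 passed the filter on low signal, which left 15638 genes, and all 10 were well above background on 8 of 8 arrays. They are read by 17 probes, with 1 probe for 5 genes, 2 probes for 4 genes and 4 probes for Tgfbr1.

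Every array held RNA of primary cells from preantral follicles of Swiss females aged 8 weeks, with 5 mice pooled per replicate, kept in culture for 9 days and moved to medium with charcoal-treated serum and no added androstenedione. All cells were transfected with 12 pmol of an siRNA pool and a pDsRed plasmid and received 100 nM E2 or vehicle for the last 10 h before lysis. The siRNA acted for 24 h, which the sample labels count up to lysis and the study's text up to the start of E2. Crossing both factors gave 4 groups of 2 arrays, written control siRNA + vehicle, control siRNA + E2, FOXL2 siRNA + vehicle and FOXL2 siRNA + E2, where the control siRNA was a non-targeting pool. The submitters describe the cells as mostly granulosa cells, so the cultures are a mixture of cell types.

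The TGF-beta ligands are secreted in a latent form and, once released, bring TGFBR2 and TGFBR1 together. TGFBR1 phosphorylates SMAD2 and SMAD3, which join SMAD4 and act on transcription in the nucleus, while SMAD6 and SMAD7 hold the pathway back. In the follicle, relatives of these ligands, among them activins, BMPs and GDF9, pass between the oocyte, granulosa cells and theca cells through the same or related SMADs.

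The target of the siRNA was checked first. The log2 scaled signal of Foxl2, a transcription factor of granulosa cells, was 13.46 and 13.01 with control siRNA + vehicle, 12.94 and 12.76 with control siRNA + E2, 13.41 and 13.39 with FOXL2 siRNA + vehicle, and 13.12 and 12.96 with FOXL2 siRNA + E2. The gene showed no fall (0.18 over both treatments, SE 0.10, limma adjusted p = 0.334). Of its 2 probes, the dim one was lower with FOXL2 siRNA (-0.97, limma adjusted p = 0.0199 among probes) and the bright one was not (0.18, adjusted p = 0.364). The gene value is a mean of both probes before the log2 step, with mean levels of 14.12 and 6.19, so the bright one dominates it. The gene value thus did not show the knockdown that the labels state, while the dim probe did. All directions given here depend on the labels, and FOXL2 siRNA stands for the arrays so labelled. Replicates of a group correlated at 0.989 to 0.992 across genes.

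Of the markers set for granulosa cells, 7 of 10 were well above background on all arrays, but Fshr and Amh were not on any array. Of the 8 granulosa markers tested, over both treatments 4 had differences above 0 and 4 below, 0 rose and 1 fell, beside 6.41% and 6.19% of all genes, and the list median was 0.05. The marker that fell was Esr2, the estrogen receptor ESR2 (-0.46, SE 0.09, limma adjusted p = 0.0167), which was not called by treatment (adjusted p = 0.0897 with vehicle and 0.11 with E2). Cyp19a1, the aromatase that makes estrogens, differed by -0.75 (SE 0.24) and did not pass (adjusted p = 0.0819). Summed over the list, the scaled signal of the granulosa markers was 115634 to 127582 with control siRNA and 138073 to 153170 with FOXL2 siRNA on the arrays with vehicle. Bright genes weigh most in such a sum, and Amhr2, the brightest of this list, differed by 0.61 with vehicle (adjusted p = 0.0782). The sum of the theca markers went from 138391 to 148027 with control siRNA + vehicle to 99083 to 117918 with FOXL2 siRNA + vehicle, where 4 of the 5 listed genes on the array were well above background on all arrays and Lhcgr was not on any. Hsd3b1, the brightest gene of that list, fell (-0.69 over both treatments, limma adjusted p = 0.00745). The other 3 genes tested of that list, enzymes and a carrier of steroid synthesis like Hsd3b1, had differences above 0. Whether these genes mark theca cells in this culture was not tested, so the sum does not measure a share of theca cells. Cyp11a1 rose (0.89, adjusted p = 0.000195), while Cyp17a1 (0.62, adjusted p = 0.11) and Star (0.47, adjusted p = 0.105) did not pass, and the list median was 0.54. The sums for endothelium were 1250 to 1812 with control siRNA + vehicle and 1890 to 1951 with FOXL2 siRNA + vehicle. Cdh5 and Tek were not above background. With vehicle, Kdr differed by 0.36 and Pecam1 by 0.07 (limma adjusted p = 0.381 and 0.932). The sums for macrophages were 490 to 511 and 573 to 633 in the same groups, with Ptprc not above background. With vehicle, Csf1r differed by 0.36, Cd68 by 0.01 and Adgre1 by -0.44 (limma adjusted p = 0.273, 0.986 and 0.592). Over both treatments the list medians were 0.20 for endothelium and -0.08 for macrophages. The sums for fibroblasts and stroma were 5029 to 9466 with control siRNA + vehicle and 6308 to 12318 with FOXL2 siRNA + vehicle. Those for smooth muscle were 383 to 542 and 352 to 536 in the same groups. Those for oocytes were 106 to 131 and 121 to 124. The groups overlapped in each of these sums. Over both treatments the stroma markers Dcn and Lum differed by 0.31 (limma adjusted p = 0.616) and -0.57, and neither was called. The part of all these differences in the results below was not tested. All marker tests in this paragraph used the fit without the replicate number as a block. In such mixed cultures fewer cells of a type and less RNA per cell cannot be told apart.

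Between the 2 siRNAs, Tgfb2 and Smad6 were the genes of the branch that passed the test without the replicate number as a block. With that block, Tgfb3, Tgfbr1 and Smad7 passed as well over both treatments. The 250 bases before the annotated starts of Tgfb2 and Smad6 are shown because these 2 genes moved in opposite directions. These sequences come from RefSeq on GRCm38.p6, where 6 of the 10 genes had an entry, and both genes lie on the minus strand. Tgfb2 is at chr1:186705990-186706239 and Smad6 at chr9:64022060-64022309. Capitals in the Tgfb2 sequence mark, from 5′ to 3′, CAGAC (a SMAD-binding element, first base at -221 and again at -204), CGTCA (the CRE core TGACG read on the other strand, at -72), CACGTG (an E-box, at -51) and TATAAA (the TATA box, at -31), counted back from the start.
Tgfb2: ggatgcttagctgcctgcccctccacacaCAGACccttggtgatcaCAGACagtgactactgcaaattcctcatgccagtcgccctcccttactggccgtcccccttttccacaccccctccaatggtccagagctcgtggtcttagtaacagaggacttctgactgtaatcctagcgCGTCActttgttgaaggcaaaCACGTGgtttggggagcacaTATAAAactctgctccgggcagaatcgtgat
Smad6: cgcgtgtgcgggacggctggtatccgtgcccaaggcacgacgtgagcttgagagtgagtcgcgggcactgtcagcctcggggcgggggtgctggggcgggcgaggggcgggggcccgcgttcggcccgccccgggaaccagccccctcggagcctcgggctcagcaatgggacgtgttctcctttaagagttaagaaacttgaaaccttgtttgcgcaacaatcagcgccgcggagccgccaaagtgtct
Each motif was searched on both strands, and no overlap between 2 marked motifs occurs in these sequences. CAGAC is held by 42.2% of 32851 promoters of the table, TGACG by 17.8%, CACGTG by 6.02% and TATAAA by 12.4%. The Smad6 window held none of these, and neither window held the forkhead core TGTTTAC (3.17% of promoters), the palindrome GTCTAGAC (0.167%) or the nuclear receptor core AGGTCA (14.0%). The forkhead motif that the study found in FOXL2 peaks allows other letters at some positions, and those forms were not searched. The study also saw no excess of FOXL2 peaks near the starts of its target genes. Such matches are letters in a window and do not show binding, and their absence does not show a lack of it.

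Among the ligands, Tgfb2 had the largest difference of the 10 genes. On the log2 scale of the scaled signal, its 2 arrays with control siRNA + vehicle were at 8.29 and 8.48, and those with FOXL2 siRNA + vehicle at 10.08 and 9.80. With E2, the arrays were at 8.56 and 8.76 with control siRNA and at 9.59 and 9.71 with FOXL2 siRNA. All 4 arrays labelled FOXL2 siRNA thus lay above all 4 control arrays. The rise was 2.93-fold with vehicle (log2 difference 1.55, SE 0.14, limma adjusted p = 0.00161) and was 1.99-fold with E2 (0.99, SE 0.14, adjusted p = 0.00896). Over both treatments it was 2.41-fold (1.27, SE 0.10, adjusted p = 0.000347). Taken within a replicate number, the differences were 1.78 and 1.32 with vehicle and 1.03 and 0.95 with E2. The call with E2 was lost without replicate 1 of control siRNA + E2 (0.89, adjusted p = 0.0844) or without replicate 2 of FOXL2 siRNA + E2 (0.93, adjusted p = 0.0688).

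Both Tgfb2 probes moved together. They rose by 1.26 and 1.32 over both treatments (limma adjusted p = 0.000615 and 0.000362 among 31487 probes). In the order of its group means, Tgfb2 went from control siRNA + vehicle (8.39 ± 0.13, SD, n = 2) through control siRNA + E2 (8.66 ± 0.14) and FOXL2 siRNA + E2 (9.65 ± 0.08) to FOXL2 siRNA + vehicle (9.94 ± 0.19). Only the middle step passed the test, and the steps between E2 and vehicle within a siRNA did not.

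**Figure D1:**
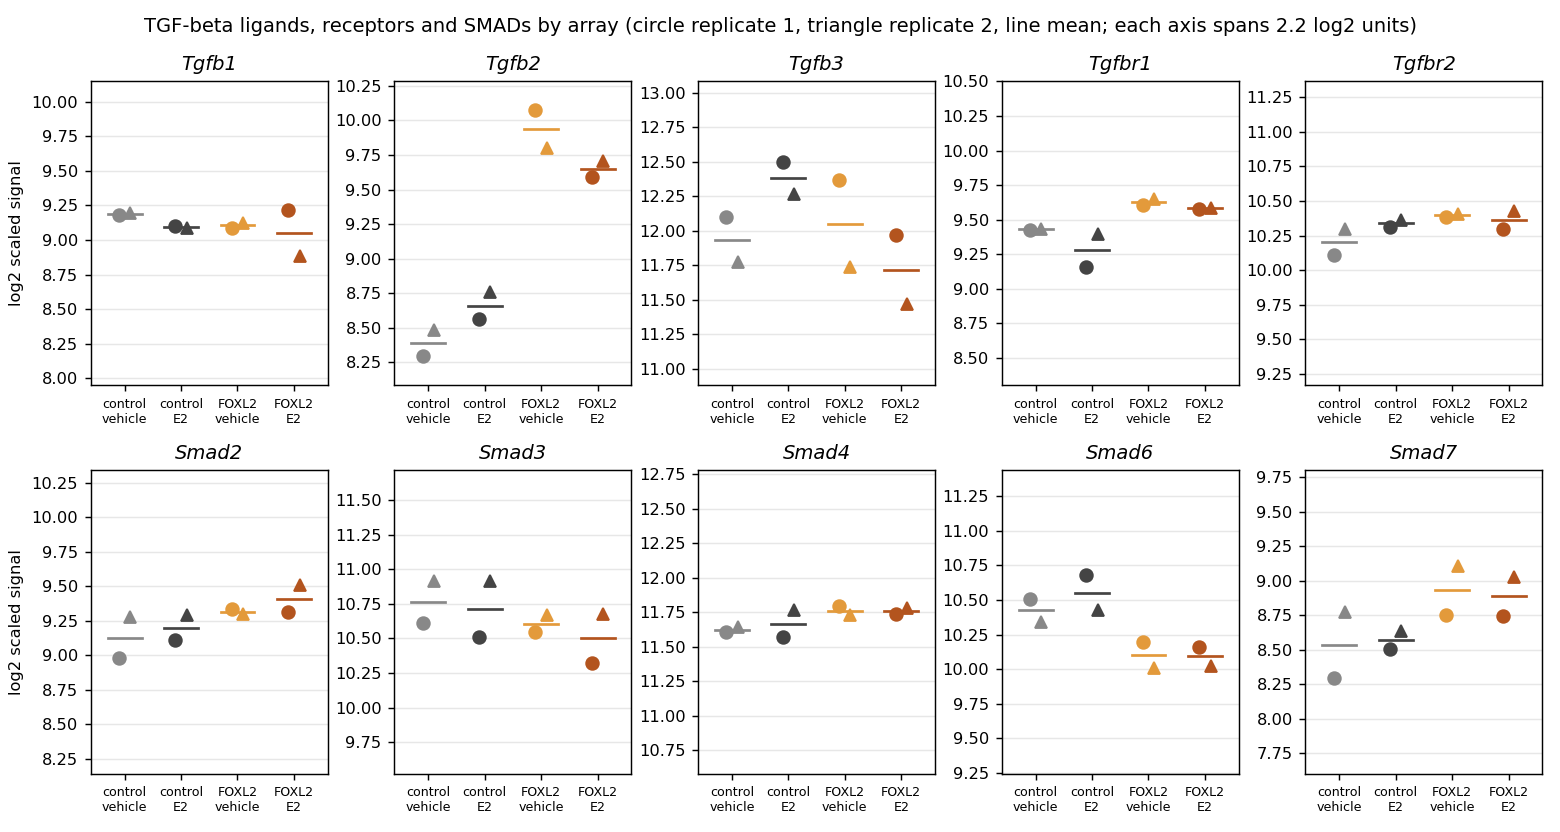
Log2 scaled signal of the 10 genes on the 8 arrays, one panel a gene, with the groups along the x axis, circles for replicate 1, triangles for replicate 2 and lines for the mean of 2 arrays. Each y axis spans 2.2 log2 units around the gene's own range, and Tgfb2 is the gene whose siRNA groups stand farthest apart, at 8.29 to 8.76 against 9.59 to 10.08.

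Tgfb3 behaved differently from Tgfb2. With vehicle, its arrays were at 12.10 and 11.77 with control siRNA and at 12.37 and 11.74 with FOXL2 siRNA, so that these groups overlapped. With E2 they were at 12.50 and 12.27 with control siRNA and at 11.97 and 11.47 with FOXL2 siRNA, which did not overlap. The difference between siRNAs was 0.12 with vehicle (95% interval -0.44 to 0.67, limma adjusted p = 0.856) and -0.67 with E2 (-1.22 to -0.11, adjusted p = 0.207). Replicate 2 of Tgfb3 was lower than replicate 1 in all 4 groups, by 0.23 to 0.63. With the replicate number as a block, the value with E2 passed the test (adjusted p = 0.00062), as did the value of -0.28 over both treatments (adjusted p = 0.0115 with the block and 0.358 without). Without 1 array at a time and with no block, the value with E2 lay between -0.92 and -0.42 and that over both treatments between -0.43 and -0.12, and neither was called in any of the 8 fits.

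Tgfb1, the third ligand, showed little spread between groups. Its control siRNA arrays lay between 9.09 and 9.20 and its FOXL2 siRNA arrays between 8.88 and 9.22. The difference between siRNAs was -0.08 with vehicle (95% interval -0.37 to 0.20) and -0.04 with E2 (-0.33 to 0.25), and neither passed the test (limma adjusted p = 0.794 and 0.913).

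The receptors differed less than Tgfb2. Tgfbr1, the kinase that phosphorylates the SMADs, was at 9.43 and 9.44 with control siRNA + vehicle, 9.16 and 9.40 with control siRNA + E2, 9.61 and 9.65 with FOXL2 siRNA + vehicle, and 9.58 and 9.59 with FOXL2 siRNA + E2. Its 4 FOXL2 siRNA arrays were above all control arrays, with a difference of 0.25 over both treatments that missed the threshold (95% interval 0.08 to 0.42, limma adjusted p = 0.0713). It passed with the replicate block (adjusted p = 0.0159). Without 1 array at a time and with no block it lay between 0.19 and 0.31 and was not called. The 4 Tgfbr1 probes gave 0.11, 0.21, 0.45 and 0.64, and none of them passed alone among all probes.

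Tgfbr2, the receptor that binds the ligand, was at 10.11 and 10.30 with control siRNA + vehicle and at 10.39 and 10.41 with FOXL2 siRNA + vehicle. With E2 it was at 10.31 and 10.37 against 10.30 and 10.43, which overlapped. Over both treatments the difference was 0.11 (95% interval -0.06 to 0.28, limma adjusted p = 0.382).

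Of the SMADs that carry the signal, none passed the test. Smad2 was at 8.98 and 9.27 with control siRNA + vehicle, 9.11 and 9.29 with control siRNA + E2, 9.34 and 9.30 with FOXL2 siRNA + vehicle, and 9.31 and 9.51 with FOXL2 siRNA + E2. Its FOXL2 siRNA arrays were all above its control arrays, though the nearest of them came close, and the difference over both treatments was 0.20 (95% interval -0.02 to 0.42, limma adjusted p = 0.234). Smad3 overlapped between siRNAs, at 10.51 to 10.92 with control siRNA and 10.32 to 10.67 with FOXL2 siRNA (-0.19, -0.48 to 0.11, adjusted p = 0.404). Smad4, the common partner, was at 11.57 to 11.77 with control siRNA and 11.73 to 11.79 with FOXL2 siRNA (0.11, -0.04 to 0.27, adjusted p = 0.323). Its 2 probes moved apart, by -0.16 and 0.25, and neither passed among all probes (adjusted p = 0.406 and 0.0855).

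Smad6, an inhibitory SMAD best known for restraining BMP signals, fell. Its arrays were at 10.51 and 10.34 with control siRNA + vehicle, 10.68 and 10.43 with control siRNA + E2, 10.19 and 10.01 with FOXL2 siRNA + vehicle, and 10.16 and 10.02 with FOXL2 siRNA + E2. All 4 FOXL2 siRNA arrays were below all control arrays. Over both treatments Smad6 fell by 0.39 on the log2 scale (SE 0.09, limma adjusted p = 0.0272), to 0.762 of the control. Within a replicate number the differences were -0.31 and -0.33 with vehicle and -0.52 and -0.40 with E2. By treatment, the values were -0.32 with vehicle and -0.46 with E2, which the block turned into calls (adjusted p = 0.0172 and 0.00247, against 0.205 and 0.0965). Without 1 array at a time and with no block, they lay between -0.42 and -0.23 with vehicle and between -0.59 and -0.33 with E2, with 0 calls.

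Smad6 passed over both treatments with the replicate number as a block (limma adjusted p = 0.000343). In the fits with no block, its call over both treatments depended on single arrays and on the model of the spread. It was lost without replicate 1 of control siRNA + vehicle (-0.35, limma adjusted p = 0.0709), without replicate 1 of control siRNA + E2 (-0.33, adjusted p = 0.0884), without replicate 2 of FOXL2 siRNA + vehicle (-0.35, adjusted p = 0.0945) and without replicate 2 of FOXL2 siRNA + E2 (-0.36, adjusted p = 0.0918). It was also lost when the spread was not allowed to follow intensity (adjusted p = 0.0594).

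Smad7, the inhibitory SMAD that acts on TGFBR1 itself, was at 8.30 and 8.77 with control siRNA + vehicle, 8.50 and 8.63 with control siRNA + E2, 8.75 and 9.11 with FOXL2 siRNA + vehicle, and 8.74 and 9.03 with FOXL2 siRNA + E2. The siRNA groups overlapped with vehicle and not with E2. The difference over both treatments was 0.36 (95% interval 0.04 to 0.68, limma adjusted p = 0.144), and replicate 2 was higher than replicate 1 in 4 of 4 groups, by 0.13 to 0.48. With the block, Smad7 passed with vehicle (0.40, adjusted p = 0.0228 with the block and 0.324 without) and over both treatments (adjusted p = 0.004). Without 1 array at a time and with no block, the value with vehicle lay between 0.16, without replicate 1 of control siRNA + vehicle, and 0.63, without replicate 2 of that group. The value over both treatments lay between 0.24 and 0.48, and neither was called in any of these fits.

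The calls in the branch were set beside those of all genes. With vehicle 1 of the 10 genes passed, beside 6.57% of all genes tested. With E2 it was 1, beside 4.39% of all genes. Over both treatments 2 passed, beside 12.6% of all genes, of which 1 rose, where 6.41% of all genes were higher, and 1 fell, where 6.19% were lower. The median difference of the 10 genes over both treatments was 0.11, and that of all genes was 0.00 at 2 decimals. In 4 of the 10 the FOXL2 siRNA arrays did not overlap the control arrays, beside 20.9% of all genes. The 2 arrays of each siRNA did not overlap in 7 of the 10 with vehicle and in 6 with E2, beside 46% and 48% of all genes. With the replicate block 3 genes passed with vehicle, 3 with E2 and 5 over both treatments, beside 18.7%, 14.9% and 27.7% of all genes.

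**Figure D2:**
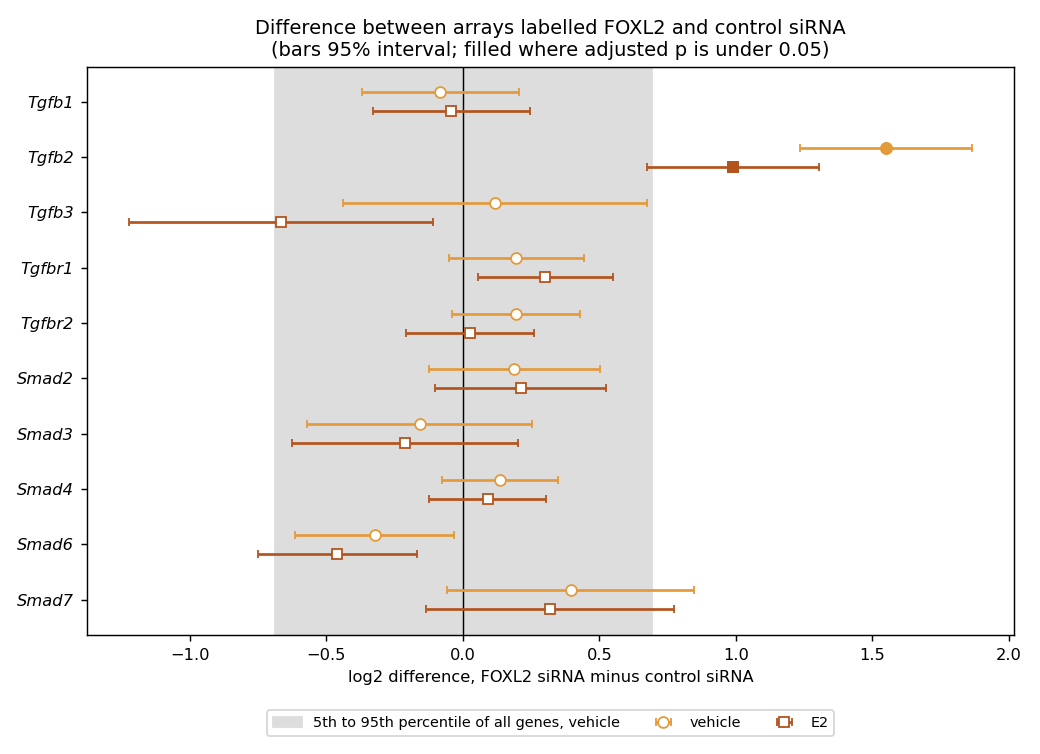
Log2 difference between arrays labelled FOXL2 siRNA and control siRNA for the 10 genes, with vehicle (circles) and with E2 (squares). Bars are 95% intervals, filled symbols passed the adjusted threshold, and grey spans the 5th to 95th percentile of all genes with vehicle (-0.69 to 0.69). Tgfb2 lies outside that span with both treatments, at 1.55 and 0.99. The span with E2, not drawn, was -0.58 to 0.71, and Tgfb3 with E2 lay below it at -0.67.

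The second question of the design was what E2 changed with each siRNA. None of the 10 genes passed in limma with control siRNA, with FOXL2 siRNA, over both siRNAs or in the difference of the E2 effects, where 0.0192%, 0.0128%, 0% and 0.243% of all genes passed. At an unadjusted p under 0.05 the counts were 0, 0, 0 and 1, beside 4.58%, 3.04%, 2.3% and 4.9% of all genes. A rule after that of the study for E2 targets, applied here to the gene values as a difference of at least 1 that is also more than 2 times the sum of the SDs of both groups, took 71 genes with control siRNA and 34 with FOXL2 siRNA, and 0 of the 10. The arrays with E2 and vehicle did not overlap in 5 of the 10 genes with control siRNA, in 2 with FOXL2 siRNA and in 0 over both, beside 27.2%, 27.6% and 1.37% of all genes. With the replicate block the E2 effects again gave 0 of the 10 with control siRNA, with FOXL2 siRNA and over both, beside 1.16%, 0.614% and 0.0512% of all genes.

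For Tgfb2 and Tgfb3 the E2 differences had opposite signs with the 2 siRNAs. The same held, with smaller values, for Tgfbr2, Smad4, Smad6 and Smad7. Of the 10 genes, 7 had E2 differences above 0 with control siRNA and 1 with FOXL2 siRNA. Within replicate numbers 1 and 2, Tgfb3 differed by 0.40 and 0.49 between E2 and vehicle with control siRNA and by -0.40 and -0.27 with FOXL2 siRNA. The corresponding values of Tgfb2 were 0.27 and 0.27 with control siRNA and -0.49 and -0.10 with FOXL2 siRNA. The difference of the E2 effects was -0.78 for Tgfb3 (95% interval -1.57 to 0.00, limma adjusted p = 1) and passed with the replicate block (adjusted p = 0.012), where 2.12% of all genes did. Without 1 array at a time and with no block it lay between -1.10, without replicate 2 of FOXL2 siRNA + vehicle, and -0.47, without replicate 1 of that group, and it was called in none of these fits. For Tgfb2 it was -0.56 (-1.01 to -0.11, adjusted p = 0.796) and did not pass with the block (adjusted p = 0.167). These 2 values share arrays with the siRNA effects above.

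For the other 8 genes the E2 difference lay between -0.15 and 0.13 with control siRNA and between -0.11 and 0.09 with FOXL2 siRNA. The widest 95% interval among them was that of Smad7, from -0.42 to 0.49 with control siRNA, so that a change of that size was not detectable with 2 arrays a group.

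**Figure D3:**
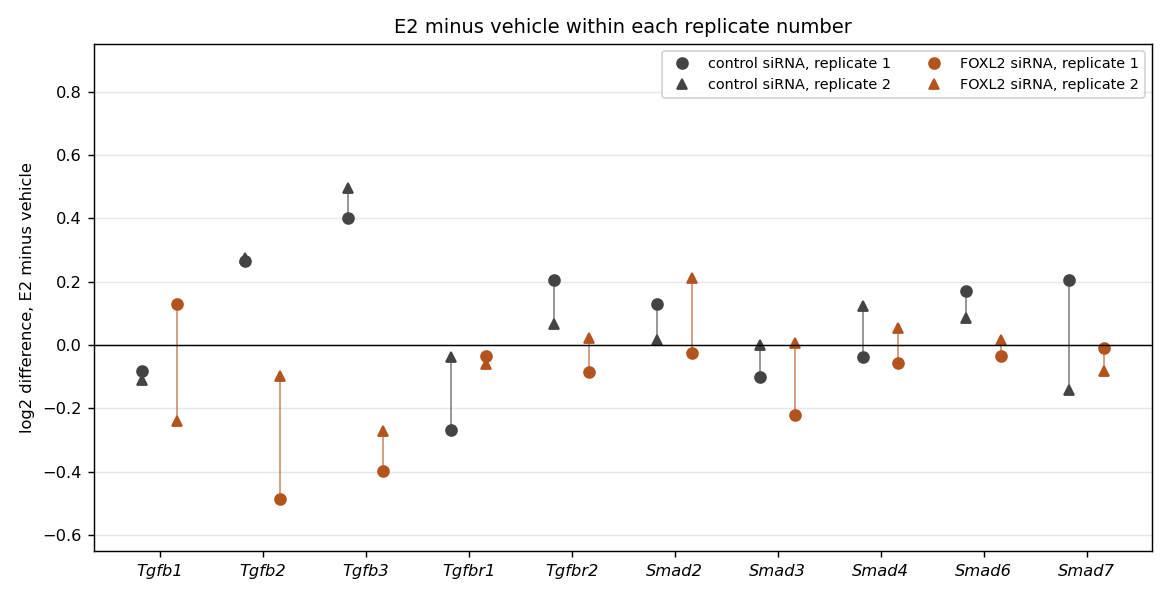
Log2 difference between E2 and vehicle within each replicate number for the 10 genes, in grey for control siRNA and in brown for FOXL2 siRNA, with circles for replicate 1, triangles for replicate 2 and a line joining both. Tgfb3 lies at 0.40 and 0.49 with control siRNA and at -0.40 and -0.27 with FOXL2 siRNA.

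Around these 10 genes, 69 further genes of the pathway were listed by role, of which 62 passed the filter. Of the genes that hold the ligands latent or release them, 10 of 14 were tested, and 1 fell with each treatment and over both, beside 2.94% of all genes with vehicle, 2.14% with E2 and 6.19% over both. It was Thbs1, thrombospondin 1, an activator of latent TGF-beta. Its arrays were at 13.69 and 13.98 with control siRNA + vehicle, 13.73 and 13.92 with control siRNA + E2, 12.59 on both arrays with FOXL2 siRNA + vehicle, and 12.76 and 12.73 with FOXL2 siRNA + E2. The groups did not overlap, and Thbs1 fell by 1.17 over both treatments (SE 0.08, limma adjusted p = 0.000251), a call that was kept without any 1 array. The median of the list was 0.08. With the block, Ltbp1, a latent TGF-beta binding protein, passed as well, with vehicle (0.53, adjusted p = 0.00369 with the block and 0.12 without) and over both treatments (0.32, adjusted p = 0.007 and 0.129), where 18.7% and 27.7% of all genes were called in either direction.

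Of the list set for co-receptors and decoys, 7 of 8 genes were tested and 1 rose over both treatments, beside 6.41% of all genes. None passed by treatment without the block. The gene that rose, Acvrl1, is the type I receptor ALK1 and so neither a co-receptor nor a decoy. No other gene of the list passed without the block. Acvrl1 was at 6.00 to 6.59 with control siRNA and 6.82 to 7.00 with FOXL2 siRNA (0.59, SE 0.14, limma adjusted p = 0.0288). Of the 8 fits that left out 1 array, only those without replicate 1 of control siRNA + vehicle or replicate 2 of control siRNA + E2 kept the call, and the difference lay between 0.48 and 0.69 (adjusted p = 0.0313 to 0.1). Endoglin (Eng), a co-receptor, was at 7.15 to 7.56 with control siRNA and 7.16 to 7.39 with FOXL2 siRNA (-0.06, adjusted p = 0.771). The block added Dcn, decorin, over both treatments (0.31, adjusted p = 0.00893 with the block and 0.616 without) and with vehicle (0.36, adjusted p = 0.0325 and 0.754), and it added Acvrl1 with E2 (0.71, adjusted p = 0.0155 and 0.0943).

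Of 23 SMAD partners and regulators, all tested, 1 rose and 2 fell over both treatments, beside 6.41% and 6.19% of all genes, with a list median of -0.02. Rnf111, the ubiquitin ligase Arkadia that removes SMAD7 and the SKI proteins, was at 11.70 to 11.75 with control siRNA and 11.92 to 12.26 with FOXL2 siRNA (0.38, SE 0.06, limma adjusted p = 0.00762). Tgif1, a corepressor of SMAD2, was at 12.03 to 12.22 with control siRNA and 11.59 to 11.84 with FOXL2 siRNA (-0.41, SE 0.07, adjusted p = 0.00749). Both calls were kept without any 1 array, and that of Rnf111 was lost with normexp background correction (0.27, adjusted p = 0.0545). Pmepa1, which holds SMAD2 and SMAD3 away from the receptor, was at 8.97 to 9.30 with control siRNA and 8.26 to 8.78 with FOXL2 siRNA (-0.60, SE 0.14, adjusted p = 0.0297), and its call was kept only without replicate 1 of FOXL2 siRNA + vehicle or with E2 (-0.73 to -0.47 over the 8 fits, adjusted p = 0.0164 to 0.104). By treatment, Rnf111 rose with vehicle (0.49, adjusted p = 0.0187, lost without any 1 of the 4 arrays with vehicle, at 0.42 to 0.56) and Tgif1 fell with E2 (-0.48, adjusted p = 0.0352, lost in all 8 fits without 1 array, at -0.57 to -0.39). With vehicle 1 of the 23 rose and 0 fell, beside 3.63% and 2.94% of all genes, and with E2 it was 0 and 1, beside 2.25% and 2.14%. With the block 5 genes of the list rose and 4 fell over both treatments, where 27.7% of all genes were called in either direction. The block also added Pmepa1 with vehicle (-0.48, adjusted p = 0.012 with the block and 0.226 without) and with E2 (-0.71, adjusted p = 0.00128 and 0.101), and Tgif1 with vehicle (-0.34, adjusted p = 0.0178 and 0.0861).

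Of the genes commonly used as TGF-beta responses, 22 of 24 were tested, and over both treatments 6 rose and 3 fell, beside 6.41% and 6.19% of all genes. The list median was 0.12. Since no direction was set for the genes listed, the counts and the median do not measure pathway activity. Those that rose were Ccn2, the matrix protein CTGF (1.04, limma adjusted p = 0.00107), Cdkn2b, a cell cycle inhibitor (1.03, adjusted p = 0.00279), Timp1, an inhibitor of metalloproteases (0.93, adjusted p = 0.000507), the collagen gene Col3a1 (0.75, adjusted p = 0.000832), and the transcription factors Klf10 (0.51, adjusted p = 0.0218) and Bhlhe40 (0.49, adjusted p = 0.027). Those that fell were Id3, an inhibitor of helix-loop-helix factors (-0.82, adjusted p = 0.00247), Angptl4, a secreted inhibitor of lipoprotein lipase (-0.38, adjusted p = 0.00593), and Tsc22d1 (-0.40, adjusted p = 0.0111). The calls of Ccn2, Cdkn2b, Timp1, Col3a1, Id3 and Angptl4 were kept without any 1 array. Klf10 was kept in 2 of 8 such fits, without replicate 1 of control siRNA + vehicle or of FOXL2 siRNA + E2 (0.43 to 0.59 over the 8 fits), and Bhlhe40 in 3, without replicate 1 of FOXL2 siRNA with either treatment or replicate 2 of control siRNA + vehicle (0.40 to 0.58). Tsc22d1 was lost without replicate 2 of FOXL2 siRNA + vehicle (-0.38, adjusted p = 0.05).

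The arrays show how far these genes stood apart. Ccn2 was at 14.32 to 14.73 on the control siRNA arrays and at 15.39 to 15.69 on the FOXL2 siRNA arrays. Timp1 was at 13.68 to 14.05 against 14.74 to 14.97, and Id3 at 13.77 to 14.31 against 13.00 to 13.51. None of these 3 genes overlapped between siRNAs. With the block the collagen gene Col1a1 also passed (1.10, adjusted p = 2.04e-07 with the block and 0.0739 without), and the list then held 10 genes that rose and 4 that fell, where 27.7% of all genes were called.

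By treatment, 5 of the 22 response genes rose and 3 fell with vehicle, beside 3.63% and 2.94% of all genes, and 2 rose and 1 fell with E2, beside 2.25% and 2.14%. With the block, 8 rose and 4 fell with vehicle, where 18.7% of all genes were called in either direction, and 9 rose and 2 fell with E2, where 14.9% were. Among the genes the block added with E2 were Cdkn2b (0.80, adjusted p = 0.000229 with the block and 0.0665 without), Bhlhe40 (0.67, adjusted p = 0.000261 and 0.0585), Col3a1 (0.45, adjusted p = 0.00429 and 0.0522) and Id3 (-0.53, adjusted p = 0.000894 and 0.0985). With vehicle it added Bhlhe40 (0.30, adjusted p = 0.033 and 0.346) and Tsc22d1 (-0.31, adjusted p = 0.0484 and 0.145). It passed Col1a1 with each treatment (1.17 with vehicle and 1.02 with E2). In the difference of the E2 effects it added Col3a1 (-0.59, adjusted p = 0.0309 and 0.364) and Id3 (0.58, adjusted p = 0.0251 and 0.854). Without 1 array, the calls with E2 were kept in 6 of 8 fits for Ccn2, 4 for Timp1 and 2 for Tsc22d1. With vehicle they were kept in 2 fits for Klf10, in 7 for Cdkn2b, Angptl4 and Id1, and in all 8 for Ccn2, Col3a1, Timp1 and Id3. Id1, a relative of Id3, was called with vehicle but not over both treatments. It was at 11.04 and 10.90 with control siRNA + vehicle, 10.33 and 10.38 with control siRNA + E2, 10.30 and 10.39 with FOXL2 siRNA + vehicle, and 10.64 and 10.70 with FOXL2 siRNA + E2. Control siRNA with vehicle was thus the highest group. The difference between siRNAs was -0.63 with vehicle (limma adjusted p = 0.00785, lost without replicate 1 of FOXL2 siRNA + vehicle, -0.58, adjusted p = 0.0516). It was 0.32 with E2 and passed only with the block (adjusted p = 0.0303, against 0.111). The block also called the difference between E2 and vehicle under control siRNA (-0.62, adjusted p = 0.00545, against 0.121). The difference of the E2 effects was 0.94 (SE 0.13, adjusted p = 0.0446), a call that was lost in each of the 8 fits without 1 array (0.87 to 1.01, adjusted p = 0.118 to 0.226). The lists were drawn up with earlier results of these arrays known, so their counts are descriptions.

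**Figure D4:**
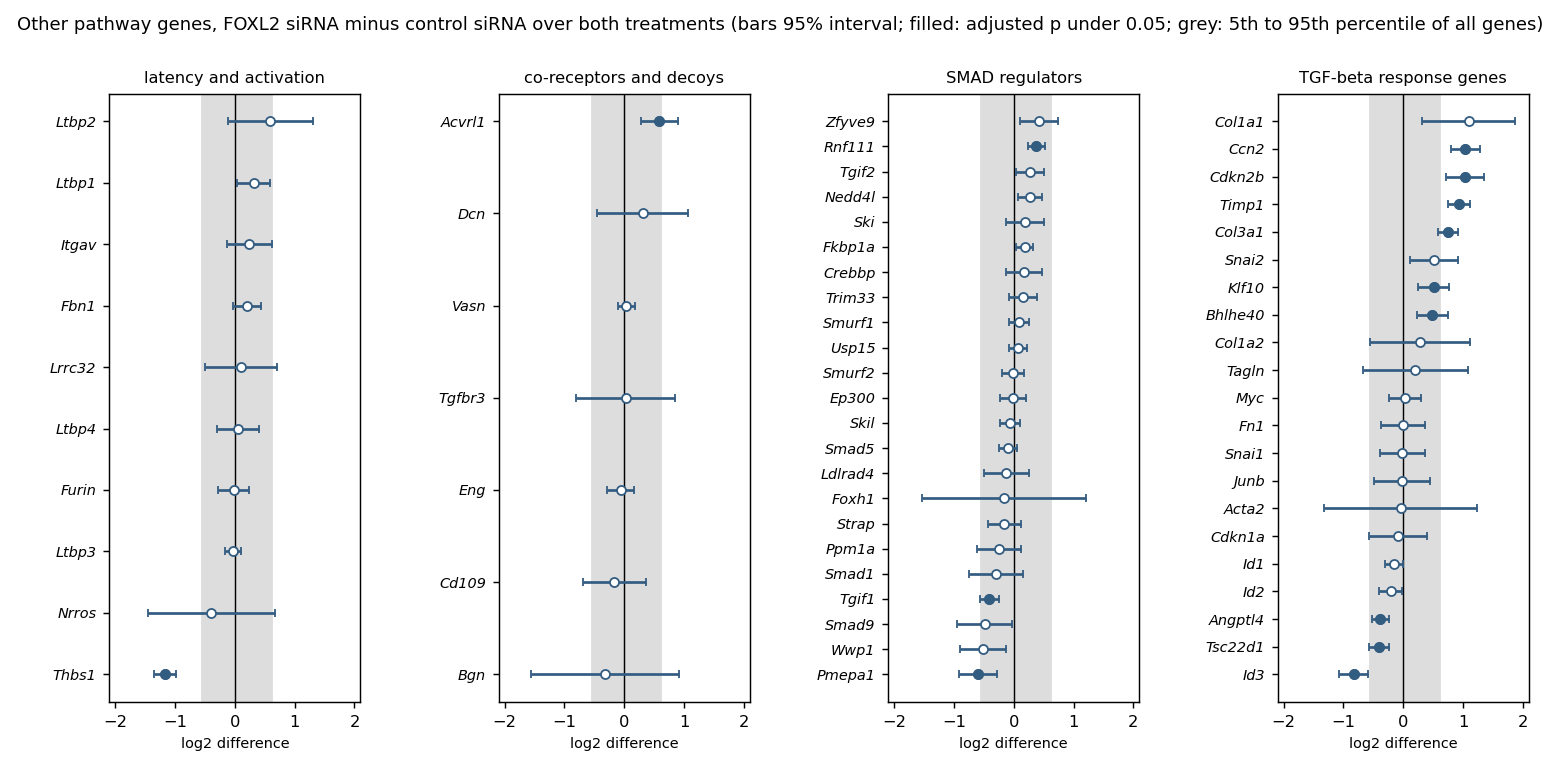
Log2 difference between FOXL2 siRNA and control siRNA over both treatments for the other pathway genes tested and reported here, in 4 panels by role. Bars are 95% intervals, filled points passed the adjusted threshold, and grey spans the 5th to 95th percentile of all genes (-0.55 to 0.62). Thbs1 is lowest of all at -1.17, and the filled points above 0.7 are Col3a1, Timp1, Cdkn2b and Ccn2.

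The genes whose signal followed the called members most closely over the 8 arrays were sought among 13472 named genes well above background on all arrays. For Tgfb2 they were Cebpd (Pearson r 0.996), Inppl1 (0.995) and Serpinb9 (0.992). For Smad6 they were Nrep (0.991), Fam13a (0.989) and Palld (0.986). The 8 arrays fall into 4 groups and share the siRNA contrast, so these values describe likeness and were not tested.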

How the data were processed

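RNA of 8 cultures was hybridised to one-colour Agilent arrays (Cy3, 50 ng of RNA each) lying on 1 slide and scanned once, so slide and scan could not be tested. The deposited scanner files hold spot intensity values made by the authors with Feature Extraction 11.5.1.1: a processed intensity after background subtraction and detrending, the raw median intensity of spot and surroundings, and flags (another unit, 0 or 1) for spots well above background, saturated or non-uniform. The deposited value table, in log2 units, was used as an alternative. At 98.6 to 98.9% of its rows it equalled, within 0.001, the log2 of the mean probe intensity minus one constant per array. Its column medians were -4.24 to -3.95.

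Here, 3671 of 62976 spots were controls and were left out, as were 39 non-uniform probes, which left 55642. Each array's processed intensity was divided by its 75th percentile (275 to 367) and multiplied by their geometric mean (320). The share of probes well above background was 51.4 to 55.6%, and 0 were saturated. Probes of one Entrez ID were averaged, genes whose scaled signal had a median under 10 were dropped (15638 of 24235 stayed), and a RefSeq table named 22352 of the IDs. Log2 values were fitted with limma 3.58.1 in R 4.3.3 as 4 group means with 4 residual degrees of freedom, a spread following intensity, two-sided tests and Benjamini-Hochberg adjustment over all genes kept (threshold 0.05). SE is the standard error of a log2 difference. The fit was also run on simulated data with independent noise between arrays and no shift between replicates, and no result here rests on it. Python 3.11.15, pandas 2.3.3, numpy 2.4.6 and matplotlib 3.10.9 made tables and plots. The number of arrays, 2 a group, limits the precision. Levels were not compared between genes, since probes differ in brightness.

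Groups and replicate numbers came from the sample titles. The labels call the duplicates independent cultures of different animals and do not say that a number is shared across groups. Differences between replicate 2 and replicate 1 correlated between groups at 0.33 to 0.44 over genes in all 6 pairs of groups, so the numbers were taken to pair the samples, from the data alone, and the fit with the number as a block is given for the 10 genes and the named pathway genes where it changes a call, and for the pathway lists as counts.

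The genes, the pathway and marker lists and the tests were chosen with earlier results of these data known. Genes named are the 10 members and Foxl2, then from each pathway list up to 4 higher and 4 lower called genes with the smallest p over both treatments and any called elsewhere, and the 3 genes most like each called member. Ltbp1, Dcn, Eng, Col1a1, Bhlhe40 and the markers were named after their values were seen. A gene counted in the pathway lists is not reported here. Alternatives were quantile normalization, normexp, no filter, a filter on genes well above background on both arrays of a group, the brightest probe, no intensity trend, only the groups compared, the replicate block, the authors' table, each array left out and, added after seeing the data, each probe alone.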

Additional observations from a re-analysis of the deposited data

Results flagged for a closer look

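The E2 effects on Tgfb3 differed between the siRNAs by -0.78 on the log2 scale in the fit with the replicate block (limma adjusted p = 0.012), because E2 and vehicle differed by 0.40 and 0.49 with control siRNA and by -0.40 and -0.27 with FOXL2 siRNA. Without the block the same value was not called (adjusted p = 1), nor in any of the 8 unblocked fits that left out 1 array, where it lay between -1.10 and -0.47. The E2 effects on Id1 differed by 0.94 (adjusted p = 0.0446), and this call was lost in each fit that left out 1 array.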

How the results depend on the processing

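With the replicate number as a block, 3 of the 10 genes passed with vehicle, 3 with E2, 5 over both treatments and 1 in the difference of the E2 effects, against 1, 1, 2 and 0 without it. Among all genes these counts were 2932, 2331, 4326 and 332 with the block, against 1027, 686, 1971 and 38, and E2 gave 182 genes under control siRNA and 96 under FOXL2 siRNA where the unblocked fit gave 3 and 2. It changed no other call of the 10 genes. With no intensity trend in the spread, 1 of the 10 passed over both treatments, Smad6 being lost. Without 1 array at a time, 1 of the 10 passed in every fit with vehicle, 0 to 1 with E2 and 1 to 2 over both treatments, and all genes called fell to as few as 309, 131 and 1181. The rise of Tgfb2 with vehicle and over both treatments was kept under each alternative tried. Single-gene values that were called, with or without the block for the 10 genes and without it for the pathway genes, were followed under each alternative. Of the values under an alternative, 598 kept their direction and stayed called or uncalled as in the fit without the block. A call was gained by 8 and lost by 96, and 0 turned. The 598 thus include values called only with the block, which stayed uncalled under other alternatives. E2 differences of the 10 genes that were never called did change sign: those of Tgfb2, Smad7 and Smad4 over both siRNAs in 4, 2 and 1 of 8 alternatives, and those of Smad4, Smad6 and Smad7 with FOXL2 siRNA in 3, 3 and 1 of 9. The causes were not tested. All 10 genes were well above background on every array, and each group holds 2 arrays.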
